A study of Homo sapiens with 16 samples.

Results

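The 40 genes described here are ATF4, the transcription factor at the centre of the integrated stress response, and 39 genes of amino acid supply, serine synthesis, folate one-carbon metabolism and tRNA charging that are linked to it as targets or partners. They were taken from a list of gene names, which was chosen with earlier results of these data known. All 40 were found among the 28443 genes counted in both experiments, and all 40 were among the 16301 genes that passed the filter on low counts. The cells were U2OS, an osteosarcoma cell line of human origin whose p53 gene is intact, and the study asked how a cancer-associated substitution in MDM2, W329G, alters the regulation of p53. MDM2 is the ubiquitin ligase that holds p53 low, and isogenic WT and W329G lines were made by CRISPR/Cas9 editing. Cultures received 50 µM 5-fluorouracil (5-FU), a fluoropyrimidine drug that blocks thymidylate synthesis and disturbs RNA processing, or its solvent DMSO, for 24 hours.

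The 4 groups were W329G cells with 5-FU, W329G cells with DMSO, WT cells with 5-FU and WT cells with DMSO. Each group held 4 libraries, from 2 lines per genotype (labelled cells 1 and cells 2) grown in 2 experiments that went to different sequencing vendors. The labels do not say whether a line is a single clone, nor whether a cell number names the same line in both experiments. A difference between genotypes therefore rests on 2 numbered lines of each. Values are given below as CPM, counts scaled to the library total after TMM normalisation, in the order cells 1 and cells 2 of experiment 1, then cells 1 and cells 2 of experiment 2, and this order also numbers the replicates. In such bulk samples, fewer cells of a type and less RNA per cell cannot be told apart.

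When amino acids run short or the endoplasmic reticulum is stressed, kinases phosphorylate the initiation factor eIF2, general translation slows, and the ATF4 messenger is translated more. ATF4 protein pairs with other leucine zipper factors such as CEBPG and raises genes that import and make amino acids, charge tRNAs and build the serine-to-formate branch of folate metabolism. That branch supplies one-carbon units for purines and thymidylate, the product that 5-FU withholds. Since ATF4 is set largely by translation, an mRNA count does not measure its protein.

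Libraries held 24715999 to 56877328 counts. Genes of the mitochondrial genome took between 7.16% and 31.9% of the joined counts, with 8.00% and 7.16% in W329G replicate 1 under 5-FU and DMSO, against 31.9% and 24.7% in WT replicate 1. Of 12 bone and mesenchymal markers, 6 were at 1 CPM or more in all 16 libraries (VIM, COL1A1, SPARC, FN1, RUNX2, SPP1), and the osteoblast markers SP7, BGLAP and IBSP and the mesenchymal factor TWIST1 were below 1 CPM in all. Of 8 blood markers none reached 1 CPM in all libraries, while 2 of 8 epithelial and 3 of 7 neural markers did. As a check of the p53 response, MDM2 averaged 75.4 ± 19.5 CPM in W329G cells with 5-FU and 73.0 ± 31.9 CPM in W329G cells with DMSO, and 229.7 ± 42.8 CPM in WT cells with 5-FU and 61.1 ± 18.5 CPM in WT cells with DMSO (SD, n = 4 each). CDKN1A, the p53 target that encodes the cell cycle inhibitor p21, changed by a log2 fold of 0.70 ± 0.16 in W329G (SE, adjusted p = 0.0598) and 2.42 ± 0.17 in WT (adjusted p = 2.0e-06). Gene counts do not show the edited codon.

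ATF4 dimers bind a composite element, the C/EBP-ATF response element, whose core was searched as TGATGNAA and its reverse complement TTNCATCA in windows from 250 bases before to 50 bases after the annotated starts (RefSeq, GRCh38.p14). The core lay in the windows of 13 of the 34 members with an entry, or 38.2%, against 4.46% of the 27305 genes in the table and 3.62% of its 35116 windows. The 60-base stretches below are shown because they carry the core before an annotated RefSeq start of members that the tests called, with ASNS, the textbook ATF4 target, beside them. Capitals mark the core, and each sequence runs 5′ to 3′ on the strand of its gene.
CEBPG: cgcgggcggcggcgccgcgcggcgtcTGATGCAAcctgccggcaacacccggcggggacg
CHAC1: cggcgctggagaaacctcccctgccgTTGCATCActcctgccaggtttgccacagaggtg
SLC1A5: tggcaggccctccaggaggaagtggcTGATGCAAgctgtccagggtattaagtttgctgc
AARS1: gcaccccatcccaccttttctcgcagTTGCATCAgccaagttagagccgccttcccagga
ASNS: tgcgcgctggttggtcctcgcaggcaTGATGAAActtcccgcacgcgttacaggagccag
In the order listed, they lie at chr19:33374045-33374104 (plus strand), chr15:40953236-40953295 (plus strand), chr19:46784878-46784937 (minus strand), chr16:70289660-70289719 (minus strand) and chr7:97872443-97872502 (minus strand). The core starts 42 bases before an annotated RefSeq start of CEBPG, 68 bases before one of ASNS and 209 bases before one of CHAC1. These need not be the outermost starts. By the gene bounds of experiment 1, the CEBPG, CHAC1, SLC1A5 and ASNS stretches lie within the gene, and that of AARS1 lies before it. MTHFD1L, GARS1 and IARS1 also held the core before a RefSeq start, and in SLC3A2, SLC7A1, SLC1A4, NARS1 and MARS1 it lay across or after the start. Among members with an entry, it was in 5 of the 9 called lower under 5-FU in WT and in 4 of the 9 called higher in W329G than in WT under 5-FU. A match of 8 letters is a description of sequence and not a measured binding site.

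Per length, ATF4 itself stood at the top of the set. In experiment 1, where exon lengths were given, it had 134.9 and 203.8 CPM per kb in W329G cells with 5-FU and DMSO, and 83.8 and 146 CPM per kb in WT cells with 5-FU and DMSO (means of 2 libraries). Averaged over the groups, the leucine carrier SLC7A5 came next at 122 CPM per kb, then the glutamine carrier SLC1A5 at 101 and the proline enzyme PYCR1 at 95.7. At the low end lay the glutathione-degrading enzyme CHAC1 with 2.91 CPM per kb, the cystathionine synthase gene CBS with 1.01 and the secreted glycoprotein gene STC2 with 0.588. The order was not the same in every group, since SLC7A5 stood above ATF4 in WT cells with 5-FU, and with 2 libraries a group the neighbours in it were not tested against each other.

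**Figure D1:**
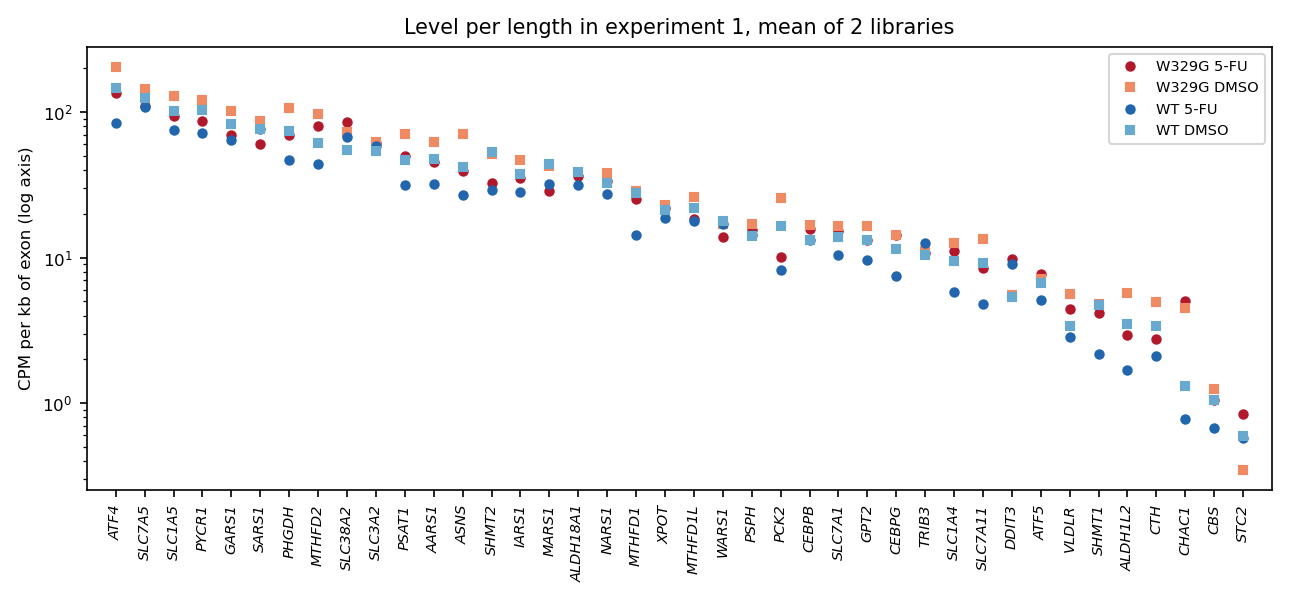
Level of each of the 40 genes per kb of exon in experiment 1 (log axis), mean of 2 libraries per group, ordered by the mean of the 4 groups. Levels run from 142 CPM per kb for ATF4 to 0.588 for STC2, and most members have their lowest point in WT cells with 5-FU.

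Under 5-FU most members had lower mRNA in both genotypes, with 3 calls in W329G and 11 in WT; the test of the difference between these responses is given further on. In W329G cells 3 of 40 members fell and none rose (edgeR quasi-likelihood test, Benjamini-Hochberg adjusted p under 0.05 over all genes tested), where 0.595% of all genes were called lower. In WT cells 11 of 40 fell and none rose, where 5.25% of all genes were called lower. The median log2 fold change of the members was -0.34 in W329G and -0.52 in WT, against 0.02 and 0.01 over all genes tested. Negative values were found for 34 members in W329G and 37 in WT. With each DMSO library paired to the 5-FU library of the same line and experiment, a fit chosen after the data were seen, 18 members fell in W329G (background 5.85%) and 30 in WT (background 13.2%). DESeq2 without pairs called 6 members lower in W329G (all genes 2.17%) and 17 in WT (all genes 7.01%). Counted by library pairs, 25 members were lower under 5-FU in 4 of 4 W329G pairs (all genes 17%), 32 in 4 of 4 WT pairs (all genes 21.2%) and 23 in all 8 pairs (all genes 8.53%). Every one of the 3 calls in W329G was lost when any 1 of its 4 pairs was left out, while the WT count lay between 5 and 10, with 7 without replicate 3 and 5 without replicate 4. Calls over all genes fell too, from 129 to between 11 and 22 in W329G and from 1435 to between 662 and 1177 in WT.

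**Figure D2:**
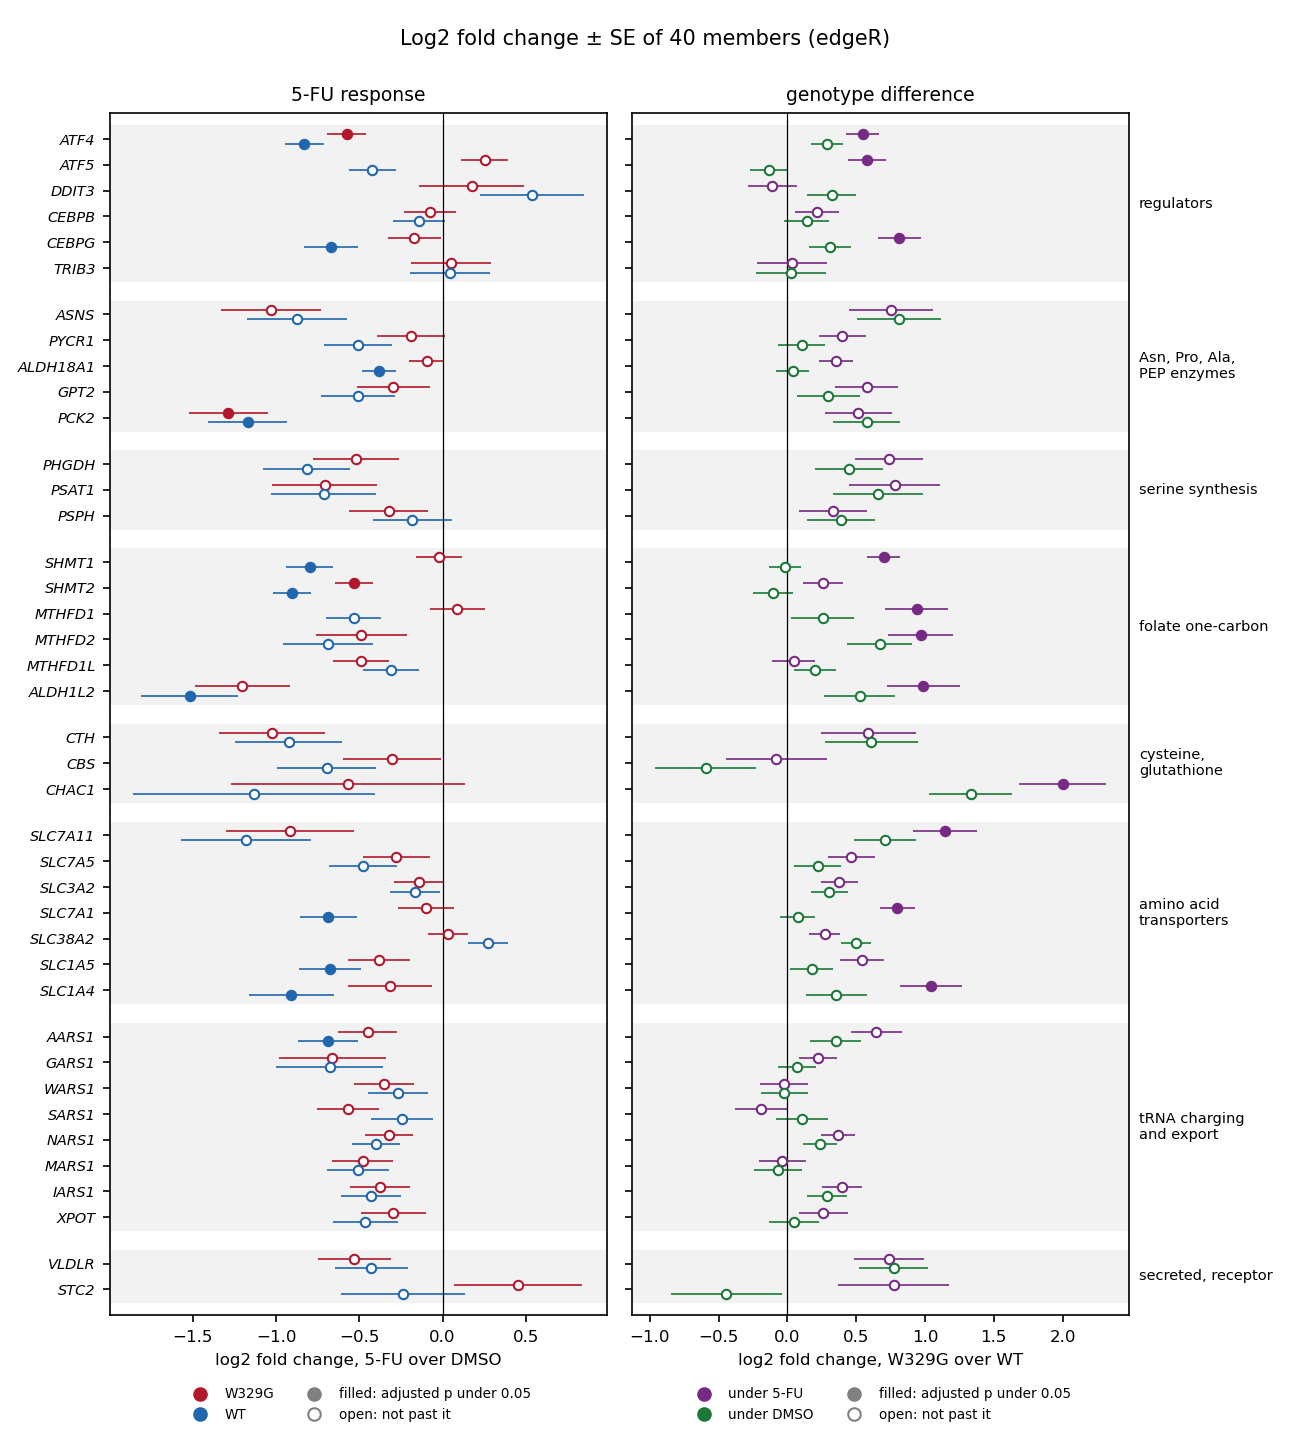
Log2 fold change ± SE of each member, 5-FU over DMSO in each genotype (left) and W329G over WT under each treatment (right), grouped by role; filled points passed an adjusted p of 0.05. Filled points on the left, 3 for W329G and 11 for WT, all lie below 0, and the 11 on the right are all for cells with 5-FU and all lie above 0.

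Among the 6 regulators, ATF4 fell in both genotypes. ATF4 (GRCh38 chromosome 22, 39519695 to 39522685, plus strand) had 357, 321, 296 and 267 CPM in W329G cells with 5-FU, against 574.5, 450.4, 394 and 430.2 CPM with DMSO. The WT libraries held 198, 223, 209 and 209.5 CPM with 5-FU, against 360.4, 373, 409 and 351 CPM with DMSO. The 5-FU libraries lay below all DMSO libraries of the same genotype, and all 4 W329G libraries with 5-FU lay above all 4 WT libraries with 5-FU. The log2 fold change was -0.57 ± 0.12 in W329G (adjusted p = 0.0376) and -0.83 ± 0.12 in WT (adjusted p = 0.00035). Under 5-FU the level was higher in W329G than in WT by 0.55 ± 0.12 (adjusted p = 0.0166), and with DMSO it differed by 0.29 ± 0.12 (adjusted p = 0.229). The responses themselves differed by 0.26 ± 0.17, which did not pass the test (adjusted p = 0.761).

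CEBPG, a leucine zipper partner of ATF4, had 72.2, 54.4, 48.7 and 58.4 CPM in W329G cells with 5-FU, against 66.0, 59.3, 64.4 and 73.4 CPM with DMSO. Among WT libraries the values were 25.8, 40.5, 31.2 and 35.7 CPM with 5-FU, against 45.6, 55.9, 46.7 and 63.7 CPM with DMSO. The W329G groups overlapped, the WT groups did not, and the W329G libraries with 5-FU all exceeded the WT libraries with 5-FU. CEBPG fell in WT by 0.67 ± 0.16 on the log2 scale (adjusted p = 0.0154), with -0.17 ± 0.16 in W329G (adjusted p = 0.705), and was higher in W329G than in WT under 5-FU by 0.81 ± 0.16 (adjusted p = 0.0107).

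ATF5, a stress-induced relative of ATF4 that is itself under translational control, moved in opposite directions in the pairs of the 2 genotypes. It had 23.5, 22.2, 22.1 and 25.7 CPM in W329G cells with 5-FU, against 21.4, 20.5, 16.3 and 20.3 CPM with DMSO. WT cells had 14.8, 15.2, 19.1 and 13.2 CPM with 5-FU, against 17.5, 22.3, 23.5 and 20.2 CPM with DMSO. The W329G groups did not overlap, the 5-FU libraries being higher, and in WT each 5-FU library was below its own DMSO partner. The responses were 0.25 ± 0.14 in W329G (adjusted p = 0.473) and -0.42 ± 0.14 in WT (adjusted p = 0.0776), neither past the unpaired test, and in the paired fit ATF5 fell in WT by 0.43 ± 0.10 (adjusted p = 0.0080). Under 5-FU ATF5 was higher in W329G than in WT by 0.58 ± 0.14 (adjusted p = 0.0240). ATF5 lies on the opposite strand of NUP62, whose counts came to 662% of those of ATF5 in experiment 1, and the sources do not say whether counting used strand.

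The 3 other regulators passed no unpaired test. DDIT3, which encodes the pro-apoptotic factor CHOP, ranged from 4.90 to 15.9 CPM, with responses of 0.18 in W329G and 0.54 in WT. TRIB3, a pseudokinase that feeds back on ATF4, ranged from 13.6 to 58.5 CPM, and CEBPB, a leucine zipper factor that can form dimers with ATF4, from 17.9 to 36.3 CPM. Their responses lay between -0.14 and 0.05. DDIT3 overlaps MARS1 on the opposite strand, with MARS1 at 2848% of its counts, so reads of the 2 genes cannot be told apart if strand was ignored.

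**Figure D3:**
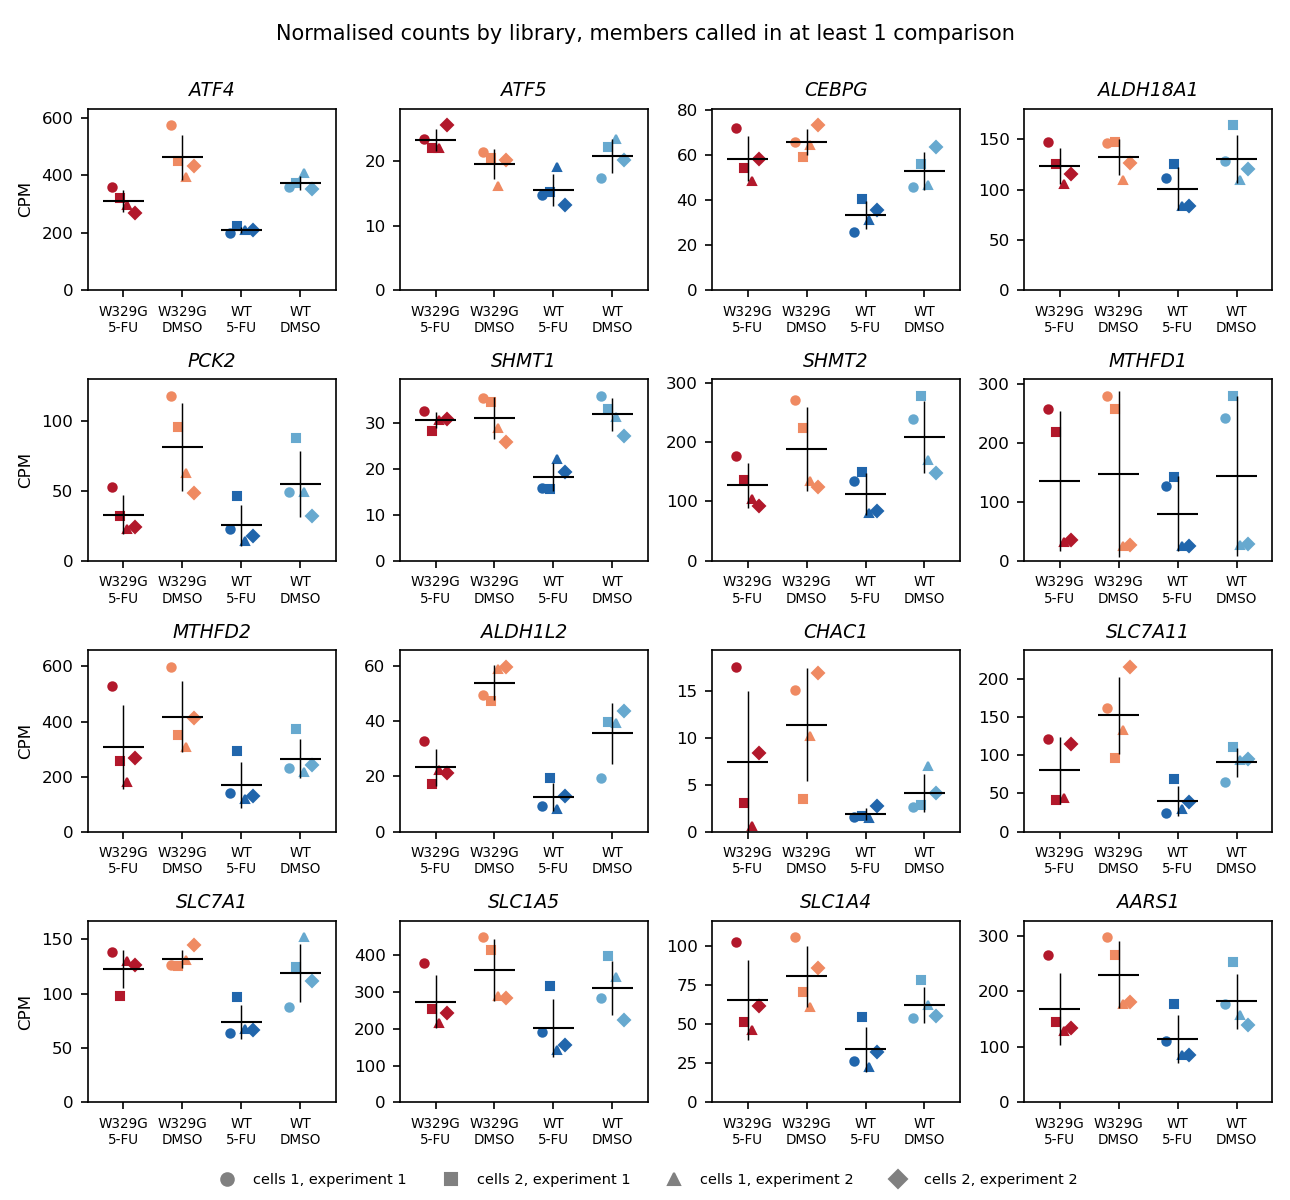
CPM of the 16 members called in at least 1 comparison, by group, with the mean (bar) and SD (line) of 4 libraries; symbols give the line and experiment. ATF4, CEBPG, SHMT1 and SLC7A1 show W329G libraries with 5-FU wholly above WT libraries with 5-FU, and MTHFD1 splits by experiment.

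Of the 5 enzymes of asparagine, proline, alanine and phosphoenolpyruvate, PCK2 fell in both genotypes and ALDH18A1 in WT. PCK2, the mitochondrial phosphoenolpyruvate carboxykinase, had 53.1, 31.9, 22.8 and 24.6 CPM in W329G cells with 5-FU, against 118, 96.2, 63.2 and 48.9 CPM with DMSO. In WT cells it had 23.1, 46.3, 14.5 and 17.6 CPM with 5-FU, against 49.5, 88.1, 49.7 and 32.3 CPM with DMSO. Within each experiment the 5-FU libraries lay below both DMSO libraries of their genotype. The log2 fold change was -1.29 ± 0.24 in W329G (adjusted p = 0.0210) and -1.17 ± 0.24 in WT (adjusted p = 0.00571).

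ALDH18A1, which makes the proline precursor pyrroline-5-carboxylate from glutamate, had 147, 126, 106 and 116 CPM in W329G cells with 5-FU, against 146, 147, 109 and 126 CPM with DMSO. The WT libraries held 111, 126, 83.7 and 83.4 CPM with 5-FU, against 129, 164, 109 and 121 CPM with DMSO. Libraries of the 2 treatments were separate in WT within each experiment and were mixed in W329G. It fell in WT by 0.38 ± 0.10 on the log2 scale (adjusted p = 0.0321), a call lost without any 1 of the 4 WT pairs, and its W329G value was -0.10.

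ASNS, which makes asparagine, ranged from 42.1 to 396 CPM and had large but variable responses of -1.03 ± 0.30 in W329G (adjusted p = 0.129) and -0.87 ± 0.30 in WT (adjusted p = 0.0838). It was lower under 5-FU in all 8 pairs, and in the paired fit it fell in both genotypes, by 1.07 ± 0.13 in W329G (adjusted p = 0.00042) and 0.91 ± 0.13 in WT (adjusted p = 0.00020). PYCR1, which completes proline synthesis, ranged from 111 to 401 CPM, and the alanine transaminase GPT2 from 32.9 to 120.5 CPM. Both had responses near -0.51 in WT that missed the threshold (PYCR1 adjusted p = 0.147, GPT2 adjusted p = 0.189), and both fell in WT in the paired fit (PYCR1 adjusted p = 0.0155, GPT2 adjusted p = 0.0068).

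None of the 3 serine synthesis genes passed the unpaired test in any comparison, with 1 at an unadjusted p under 0.05 in W329G and 2 in WT. PHGDH, the first enzyme of the pathway, ranged from 105 to 778 CPM, PSAT1, the second, from 26.6 to 199 CPM, and the phosphatase PSPH from 15.4 to 57.4 CPM. For PHGDH the response was -0.52 in W329G (adjusted p = 0.414) and -0.82 in WT (adjusted p = 0.0653). PSAT1 had -0.71 in each genotype, with adjusted p = 0.339 in W329G and 0.192 in WT. Both fell in each genotype in the paired fit, PHGDH by 0.57 ± 0.13 in W329G (adjusted p = 0.0129) and 0.83 ± 0.13 in WT (adjusted p = 0.00042). PSPH did not pass it in either.

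The folate group held the most calls, with 1 of 6 members lower under 5-FU in W329G, 3 of 6 lower in WT, and 4 of 6 higher in W329G than in WT under 5-FU. Over all genes the shares were 0.595%, 5.25% and 7.3%. SHMT2, the mitochondrial enzyme that splits serine to give a one-carbon unit, had 177, 136, 103 and 92.1 CPM in W329G cells with 5-FU, against 271, 224, 134 and 124 CPM with DMSO. Among WT libraries the values were 134, 150.1, 81.2 and 83.2 CPM with 5-FU, against 239.6, 278, 169.9 and 148 CPM with DMSO. Every 5-FU library lay below both DMSO libraries of its genotype and experiment. SHMT2 fell by 0.53 ± 0.11 in W329G (adjusted p = 0.0397) and 0.91 ± 0.11 in WT (adjusted p = 0.00013) on the log2 scale, and the genotypes did not differ past the test under 5-FU (0.26 ± 0.15, adjusted p = 0.282).

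SHMT1, its cytosolic counterpart (chromosome 17, 18327860 to 18363563, minus strand), had 32.6, 28.2, 30.6 and 30.9 CPM in W329G cells with 5-FU, against 35.3, 34.5, 29 and 25.8 CPM with DMSO. In WT cells it had 15.9, 15.6, 22.1 and 19.2 CPM with 5-FU, against 35.9, 33.0, 31.3 and 27.2 CPM with DMSO. The 4 WT libraries with 5-FU lay below all 12 others, while W329G libraries were lower with 5-FU in experiment 1 and higher in experiment 2. SHMT1 fell in WT by 0.80 ± 0.14 on the log2 scale (adjusted p = 0.0021), with -0.02 ± 0.14 in W329G (adjusted p = 0.971). It was higher in W329G than in WT under 5-FU by 0.70 ± 0.12 (adjusted p = 0.0062), and the DMSO difference was -0.01. The opposite-strand gene SMCR8 overlaps it, with 155% of its counts.

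ALDH1L2, the mitochondrial formyl-tetrahydrofolate dehydrogenase, had 32.9, 17.2, 22.2 and 21.2 CPM in W329G cells with 5-FU, against 49.7, 47.5, 59.0 and 59.9 CPM with DMSO. The WT libraries held 9.21, 19.5, 8.15 and 12.9 CPM with 5-FU, against 19.5, 39.8, 39.5 and 43.8 CPM with DMSO. W329G libraries were fully separated by treatment, and in WT the DMSO library of replicate 1 was as low as the highest 5-FU library. It had the largest response of the set in WT, where it fell by 1.52 ± 0.29 (adjusted p = 0.0038), with -1.20 ± 0.29 in W329G (adjusted p = 0.0652). In the paired fit ALDH1L2 also fell by 1.24 ± 0.19 in W329G (adjusted p = 0.0021). Under 5-FU it was higher in W329G than in WT by 0.99 ± 0.26 (adjusted p = 0.0387), though WT replicate 2 lay above W329G replicate 2. Within each experiment alone the edgeR difference was 0.81 ± 0.48 in experiment 1 (adjusted p = 0.427) and 1.025 ± 0.24 in experiment 2 (adjusted p = 0.135). NOPCHAP1 on the opposite strand held 34.5% of the counts of ALDH1L2.

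MTHFD2, the mitochondrial dehydrogenase and cyclohydrolase of the pathway, had 528, 257, 178 and 266 CPM in W329G cells with 5-FU, against 599.9, 352, 308 and 412 CPM with DMSO. Among WT libraries the values were 138, 292, 117 and 130.3 CPM with 5-FU, against 231, 371, 215 and 243 CPM with DMSO. W329G replicate 1 and WT replicate 2 were the highest 5-FU libraries of their genotypes. Under 5-FU MTHFD2 was higher in W329G than in WT by 0.97 ± 0.24 (adjusted p = 0.0287), and neither response passed the unpaired test (-0.49 in W329G and -0.69 in WT). MTHFD2 was lower under 5-FU in all 8 pairs, and in the paired fit it fell in both genotypes, by 0.52 ± 0.12 in W329G (adjusted p = 0.0142) and 0.72 ± 0.12 in WT (adjusted p = 0.00066).

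MTHFD1, the cytosolic enzyme with 3 folate activities, had 257, 218, 31.9 and 35.6 CPM in W329G cells with 5-FU, against 279.6, 256, 24.3 and 27.4 CPM with DMSO. In WT cells it had 127, 143, 24.5 and 25.2 CPM with 5-FU, against 241, 279, 26.7 and 28.2 CPM with DMSO. Its level in experiment 2 was 0.124 times that in experiment 1, so its test over counts summed across experiments rests mostly on experiment 1. On these sums it was higher in W329G than in WT under 5-FU by 0.94 ± 0.23 (adjusted p = 0.0280). Within each experiment alone the edgeR difference was smaller, 0.82 in experiment 1 (adjusted p = 0.0558) and 0.42 in experiment 2 (adjusted p = 0.385). The sums hold the 2 experiments in unequal shares, so 0.94 is not the difference within either. Its WT response of -0.53 ± 0.16 missed the threshold (adjusted p = 0.0547) but passed in the paired fit (-0.56, adjusted p = 0.0188). MTHFD1L, the mitochondrial formate-producing relative, ranged from 61.6 to 133 CPM and passed no unpaired test. In the paired fit MTHFD1L fell by 0.49 ± 0.09 in W329G (adjusted p = 0.0047) and 0.33 ± 0.09 in WT (adjusted p = 0.0167).

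In the cysteine and glutathione group, CHAC1 was the member with the largest genotype difference of the set. CHAC1 (chromosome 15, 40952962 to 40956519, plus strand), which degrades glutathione, had 17.6, 3.04, 0.546 and 8.45 CPM in W329G cells with 5-FU, against 15.2, 3.46, 10.2 and 16.9 CPM with DMSO. The WT libraries held 1.53, 1.68, 1.47 and 2.78 CPM with 5-FU, against 2.62, 2.81, 6.97 and 4.13 CPM with DMSO. W329G libraries spread widely under 5-FU, from the lowest value of all 16 libraries to the highest. On the sums over experiments, CHAC1 was higher in W329G than in WT under 5-FU by 2.00 ± 0.32 (adjusted p = 0.0047), and with DMSO the difference was 1.33 ± 0.30 (adjusted p = 0.0710). Summing leaves the spread between experiments out of these SEs. Within each experiment alone the edgeR difference under 5-FU was 2.70 ± 0.92 in experiment 1 (adjusted p = 0.183) and 1.07 ± 0.97 in experiment 2 (adjusted p = 0.747). CTH, which releases cysteine from cystathionine, ranged from 2.12 to 13.9 CPM and was lower under 5-FU in all 8 pairs. The CTH responses of -1.03 in W329G and -0.92 in WT passed only the paired fit (adjusted p = 0.0012 in W329G and 0.00060 in WT). CBS ranged from 2.67 to 9.65 CPM in experiment 1 and from 58.9 to 153 CPM in experiment 2, and it has a near-identical annotated copy, CBSL, so its counts are uncertain. CBS fell in WT in the paired fit alone (-0.65, adjusted p = 0.0038).

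Among the 7 amino acid transporters, 3 fell in WT and none in W329G (1 at an unadjusted p under 0.05), and 3 were higher in W329G than in WT under 5-FU. Over all genes 5.25% fell in WT and 0.595% in W329G, and 7.3% were higher in W329G under 5-FU. SLC7A1, the carrier of arginine and lysine, had 138, 97.9, 130.0 and 126 CPM in W329G cells with 5-FU, against 127, 126, 131 and 144 CPM with DMSO. Among WT libraries the values were 63.4, 97.1, 67.6 and 66.3 CPM with 5-FU, against 87.7, 124, 152 and 112 CPM with DMSO. The W329G libraries with 5-FU all lay above the WT libraries with 5-FU, though the lowest and the highest of them nearly met, at 97.9 and 97.1 CPM. SLC7A1 fell in WT by 0.69 ± 0.17 (adjusted p = 0.0190), with -0.10 in W329G, and was higher in W329G than in WT under 5-FU by 0.80 ± 0.13 (adjusted p = 0.0048).

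SLC1A4, a carrier of alanine, serine and cysteine, had 102, 51.5, 46.5 and 61.4 CPM in W329G cells with 5-FU, against 106, 70.3, 60.8 and 85.9 CPM with DMSO. In WT cells it had 26.4, 54.4, 22.6 and 32.0 CPM with 5-FU, against 53.6, 78.4, 62.3 and 55.1 CPM with DMSO. WT replicate 2 overlapped the W329G libraries under 5-FU. SLC1A4 fell in WT by 0.91 ± 0.25 (adjusted p = 0.0358) and was higher in W329G than in WT under 5-FU by 1.04 ± 0.22 (adjusted p = 0.0173). SLC7A11, the cystine importer, had 122, 41.4, 44.0 and 115 CPM in W329G cells with 5-FU, against 163, 96.6, 134 and 217 CPM with DMSO. The WT libraries held 24.7, 68.5, 29.5 and 38.3 CPM with 5-FU, against 64.9, 111, 93.5 and 95.6 CPM with DMSO. All 8 pairs were lower under 5-FU, yet the unpaired responses did not pass the test (-0.92 in W329G, adjusted p = 0.312, and -1.18 in WT, adjusted p = 0.0754). In the paired fit SLC7A11 fell by 1.03 ± 0.17 in W329G (adjusted p = 0.0033) and 1.27 ± 0.17 in WT (adjusted p = 0.00018). Between genotypes under 5-FU, SLC7A11 was higher in W329G by 1.14 ± 0.23 (adjusted p = 0.0129).

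SLC1A5, the glutamine carrier, had 378, 253, 217 and 244 CPM in W329G cells with 5-FU, against 449, 413, 289 and 284 CPM with DMSO. Among WT libraries the values were 190.3, 315, 143 and 156 CPM with 5-FU, against 284, 397, 340.4 and 224 CPM with DMSO. It fell in WT by 0.67 ± 0.19 (adjusted p = 0.0339), with each 5-FU library below its own DMSO partner in both genotypes. SLC7A5, which exchanges leucine, ranged from 197 to 728 CPM, its heavy chain SLC3A2 from 107 to 337 CPM, and neither passed an unpaired test, SLC7A5 falling in WT in the paired fit (-0.47, adjusted p = 0.0368). SLC38A2, a sodium-coupled carrier of neutral amino acids, ranged from 313 to 654 CPM. Like DDIT3 it was higher under 5-FU in 4 of 4 WT pairs, with a WT response of 0.27 (adjusted p = 0.196).

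The 8 genes of tRNA charging and export all had negative responses in both genotypes, and 1 call. AARS1, the alanyl-tRNA synthetase, had 266, 144, 129 and 134 CPM in W329G cells with 5-FU, against 298, 265, 178 and 180.5 CPM with DMSO. In WT cells it had 111, 177, 85.2 and 86.2 CPM with 5-FU, against 177, 254, 158 and 139.6 CPM with DMSO. W329G replicate 1 stood far above the 3 other W329G libraries with 5-FU. AARS1 fell in WT by 0.69 ± 0.18 (adjusted p = 0.0238), with -0.45 in W329G (adjusted p = 0.279), and its difference between genotypes under 5-FU fell just short of the threshold (0.65, adjusted p = 0.0502). The synthetases GARS1, WARS1, SARS1, NARS1, MARS1 and IARS1 and the tRNA exporter XPOT had responses between -0.66 and -0.30 in W329G and between -0.68 and -0.25 in WT, none past the unpaired test. In the paired fit 6 of the 8 fell in each genotype, SARS1 and WARS1 being among those in W329G, and NARS1 and XPOT among those in WT. That fit called 5.85% of all genes lower in W329G and 13.2% in WT. Of the last group, the lipoprotein receptor VLDLR ranged from 14.2 to 58.8 CPM and STC2 from 0.248 to 5.86 CPM, and neither passed an unpaired test. VLDLR fell in both genotypes in the paired fit (-0.53 in W329G, adjusted p = 0.0106, and -0.43 in WT, adjusted p = 0.0140).

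Between the genotypes, most members had higher levels in W329G, with 11 called under 5-FU and 0 with DMSO. Each treatment was tested on its own. Counts were summed per cell number over both experiments, giving 2 sums per genotype and treatment. Under 5-FU 11 of 40 members were higher in W329G and none lower, where 7.3% of 17335 genes tested were called higher. With DMSO none of the 40 was called, where 1.42% of the genes were called in either direction; 9 members had an unadjusted p under 0.05, and DESeq2 called 6, where it called 7.33% of all genes. Under 5-FU DESeq2 called 18 members higher (all genes 9.7%). With no filter on low counts edgeR called 18 members higher under 5-FU (all genes 6.2%) and 6 with DMSO (all genes 3.74%). The median difference of the members was 0.53 under 5-FU and 0.27 with DMSO, against -0.01 and -0.00 over all genes, and 35 and 33 members had positive values. The libraries differed in depth, so the sums hold the 2 experiments in unequal shares. On single libraries with a term for experiment, 10 members were higher under 5-FU, where 1130 of 16301 genes were, and 0 were called with DMSO. The medians of that fit were 0.42 under 5-FU and 0.26 with DMSO. Within experiments 1 and 2 alone, the 5-FU medians were 0.36 and 0.46. In 8 members both W329G libraries exceeded both WT libraries in each experiment under 5-FU (ATF4, ATF5, CEBPG, SHMT1, MTHFD1, SLC7A1, SLC38A2 and VLDLR; all genes 13.9%), and in 7 members with DMSO (CEBPG, ASNS, ALDH1L2, CHAC1, SLC38A2, AARS1 and VLDLR; all genes 5.58%). The epithelial KRT5, the bone markers FN1 and ALPL and the neural marker SYP were lower in W329G than in WT under 5-FU (log2 differences of -3.70, -0.89, -1.73 and -1.72), while the bone marker SPP1 was higher (0.81). The summed level of the 12 bone and mesenchymal markers ranged from 7084 to 10720 CPM in W329G cells with 5-FU and from 8681 to 15650 CPM in WT cells with 5-FU. That of the 8 epithelial markers ranged from 11.6 to 134 CPM in W329G and 15.6 to 165 CPM in WT, that of the 7 neural markers from 37.1 to 200.3 CPM in W329G and 64.6 to 157 CPM in WT, and that of the 8 blood markers from 11.4 to 132 CPM in W329G and 8.55 to 109.5 CPM in WT. The part of these differences in the result was not tested.

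The genotype calls depended on the lines. Leaving out W329G cells 1 or W329G cells 2 left no member called under 5-FU, with median differences of 0.35 and 0.65, and calls over all genes were fewer too, at 0.882% and 0.388% higher. Leaving out WT cells 1 left 9 members called higher, where 6.71% of all genes were, and WT cells 2 left 22, where 8.44% were. With DMSO, leaving out WT cells 2 gave 11 calls, where 12.8% of all genes were called, and leaving out any other line gave none, where 0.774% of all genes were called without WT cells 1 and 0.00562% without either W329G line. Exchanging the cell numbers in experiment 2, which the labels do not tie to experiment 1, left no member called under either treatment. The sign was kept in 40 of 40 members under 5-FU and 39 of 40 with DMSO. Calls over all genes fell as well, from 2504 to 221 under 5-FU and from 246 to 2 with DMSO. The median member difference with 5-FU, cells 1 minus cells 2, was 0.53 in experiment 1 and -0.16 in experiment 2 in W329G. In WT it was -0.66 and -0.14. GLUL, from the other lists, had 3.93, 18.1, 10.6 and 0.252 CPM in W329G cells with 5-FU. Whether cell numbers cross between experiments was not tested, and if they do, each sum mixes 2 lines. W329G replicate 1, the library pair with the lowest mitochondrial share, was the highest W329G library with 5-FU in 36 of 40 members, against 26.9% of all genes, and with DMSO in 21 of 40, against 24%. WT replicate 2 was the highest WT library with 5-FU in 33 of 40 members, against 25.3% of all genes. Without the mitochondrially encoded genes the counts of called members were 2 and 11 for the W329G and WT responses, and 13 and 0 for the genotypes under 5-FU and DMSO.

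**Figure D4:**
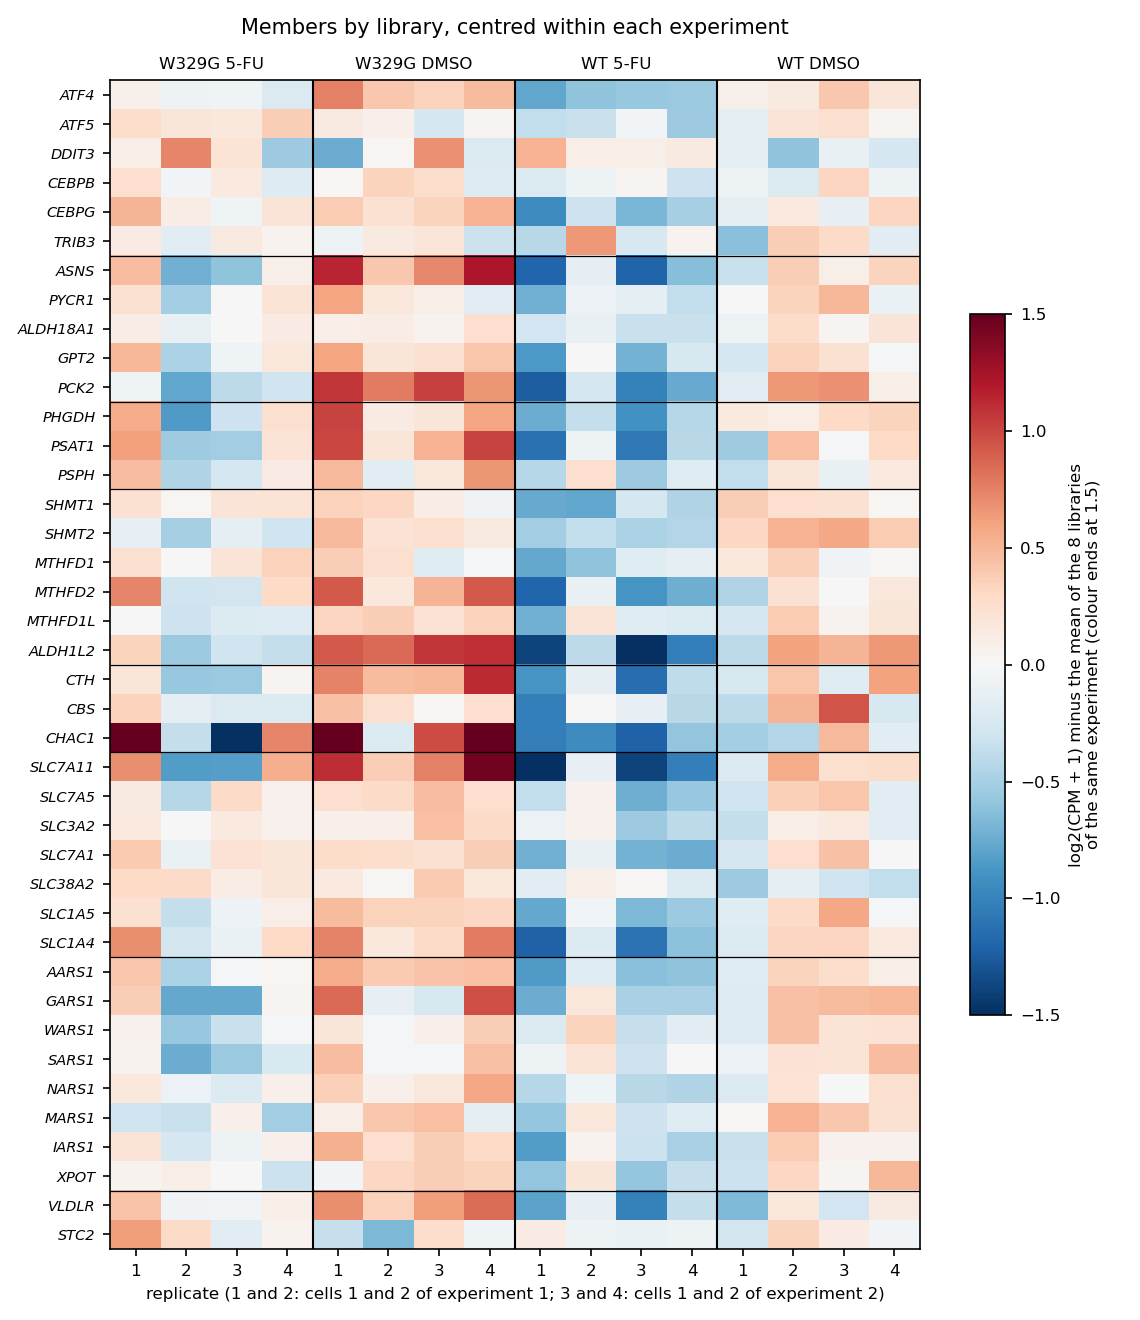
Level of the 40 members in the 16 libraries, as log2(CPM + 1) minus the mean of the 8 libraries of the same experiment, in role order; black lines part the groups and roles. Most blue cells lie in WT cells with 5-FU, and W329G replicate 1 and WT replicate 2 stand above their group in most members.

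The difference between the responses, W329G minus WT, was tested on its own, and no member passed. Of all genes 1.21% were called, while 6 of the 40 members had an unadjusted p under 0.05 and DESeq2 called 2 higher (all genes 1.67%). The median difference of the members was 0.20, against 0.01 over all genes, and 10 were negative. SHMT1 came nearest at 0.77 ± 0.20 (adjusted p = 0.0792), then ATF5 at 0.67 ± 0.20 (adjusted p = 0.151). In the paired fit both passed, ATF5 with 0.68 ± 0.14 (adjusted p = 0.0113) and SHMT1 with 0.79 ± 0.18 (adjusted p = 0.0212), 2 of 40 members where 3.62% of all genes were called higher. ATF5 changed by 0.13, 0.11, 0.44 and 0.34 in the 4 W329G pairs, against -0.23, -0.55, -0.30 and -0.62 in the 4 WT pairs. The pairs of SHMT1 gave -0.12, -0.29, 0.08 and 0.26 in W329G, against -1.17, -1.08, -0.50 and -0.50 in WT. For PCK2 the W329G and WT pairs were mixed, and for SHMT2 all 4 W329G values lay above all 4 WT values.

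**Figure D5:**
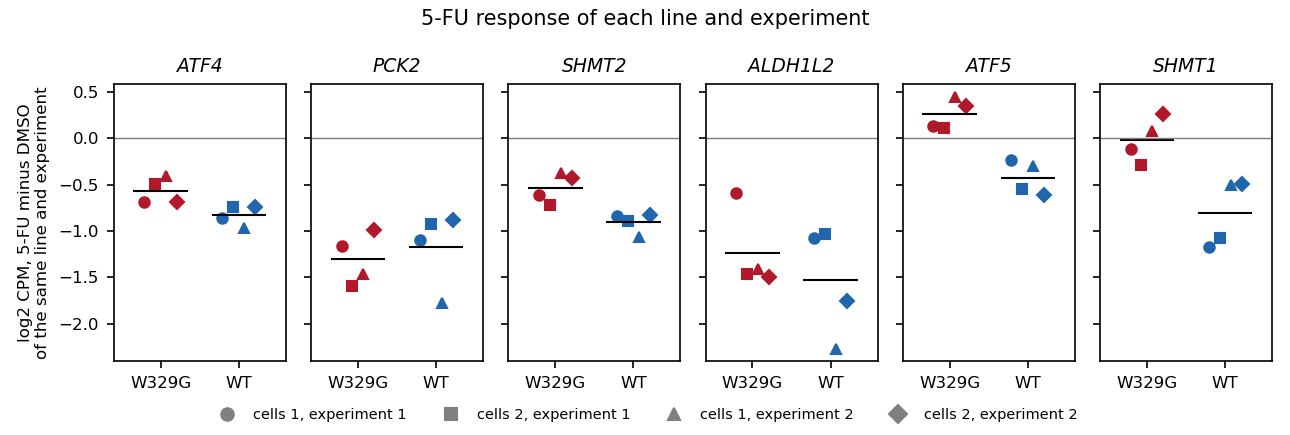
Response of each pair, the log2 CPM of the 5-FU library minus that of its DMSO partner, for the 3 members called in both genotypes and 3 more of the folate and regulator groups; bars are means of 4 pairs. ATF5 lies above 0 in all W329G pairs and below 0 in all WT pairs, while ATF4, PCK2, SHMT2 and ALDH1L2 lie below 0 in all 8.

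The experiments showed the same direction for most members but gave few calls alone, each with 2 libraries per group. Within experiment 2 the median response was -0.44 in W329G and -0.66 in WT, and within experiment 1 it was -0.31 in W329G and -0.43 in WT. Only SHMT1 was called within 1 experiment, in WT (log2 fold change -1.12, adjusted p = 0.0173) and between genotypes under 5-FU (0.95, adjusted p = 0.0260), both in experiment 1. ATF4 gave -0.56 in W329G and -0.86 in WT in experiment 2, and -0.60 in W329G and -0.80 in WT in experiment 1, with adjusted p of 0.102 or more. A test of the difference between experiments called 0 members in either genotype, with 3 at an unadjusted p under 0.05 in each and 0 by DESeq2. By edgeR it called 0 of all 16301 genes too. In WT this difference, experiment 2 minus 1, was negative in 37 of 40 members (median -0.36, all genes -0.02). For W329G it was negative in 22 (median -0.09, all genes -0.03). In the paired fit 1 member passed, DDIT3 in W329G, with a log2 difference of -1.30 ± 0.21, experiment 2 minus 1 (adjusted p = 0.0485), where 0.0613% of all genes were called. Levels differed more than responses: CBS had 12 times the level of experiment 1 in experiment 2, MTHFD1, STC2, TRIB3 and PHGDH had 0.124, 0.109, 0.454 and 0.497 times the level of experiment 1, and the other 35 lay between 0.523 and 1.16 times. Vendor and experiment cannot be told apart.

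Genes around the pathway moved in part with the members. For scale in the lists below, edgeR called 0.595% of all genes lower in W329G and 5.25% in WT. It called 32 of 16301 genes higher in W329G and 579 in WT. Under 5-FU 7.3% of all genes were higher in W329G than in WT, and 1239 of 17335 were lower. With DMSO 1.42% were called in either direction. The paired fit called 5.85% of all genes lower in W329G and 13.2% in WT, and 844 and 1901 genes higher. Of 11 purine synthesis genes, which consume one-carbon units, none was called in W329G by edgeR (4 at an unadjusted p under 0.05) and 4 fell in WT, led by PAICS (-0.75), GART (-0.49) and GMPS (-0.56). In the paired fit 3 of the 11 fell in W329G and 7 in WT. Under 5-FU 6 of the 11 were higher in W329G than in WT, led by PAICS (0.78), ADSS2 (0.62) and PFAS (0.48). Of 23 tested genes of the folate and methionine cycles, none was called in W329G (3 at an unadjusted p under 0.05), and MTRR, which reactivates methionine synthase, fell in WT (-0.35). With pairs, 3 of the 23 fell and 2 rose in W329G, and 6 fell and 3 rose in WT. Methionine synthase MTR (0.86) and MAT2A were higher in W329G than in WT under 5-FU, while ALDH1L1, the cytosolic counterpart of ALDH1L2, was lower (-1.59) and was lower with DMSO too (-1.05).

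Other ATF4 targets did not share 1 direction. Of 30, 1 fell in W329G (KLHL24, -0.89), while in WT 4 rose and 3 fell, led by the apoptosis gene BBC3 (1.80), the threonyl-tRNA synthetase TARS1 (-0.75) and the stress factor ATF3 (1.00). BBC3 is also a p53 target, as are GDF15 and SESN2 among those that rose. TARS1 and CARS1, among those that fell, are counted again below with the other cytosolic synthetases. The paired fit called 7 of the 30 lower and 2 higher in W329G, and 9 lower and 9 higher in WT. Under 5-FU 4 of the 30 were higher and 5 lower in W329G than in WT, led by BBC3 (-1.77), GDF15 (-2.40) and KLHL24 (-0.91), and the responses of KLHL24 (-1.41) and BBC3 (-1.43) differed between genotypes. Of 17 ER chaperone and unfolded protein response genes, 2 fell in W329G (XBP1, -0.90, and HERPUD1, -0.70) and 2 in WT (XBP1, -0.78, and the chaperone HSPA5, -0.71). At an unadjusted p under 0.05 there were 8 in W329G and 4 in WT. HSPA5 had -0.85 in W329G, which missed the threshold (edgeR adjusted p = 0.0747). In the paired fit 7 of the 17 fell in W329G and 5 in WT, HSPA5 and HERPUD1 in both. Of the same 17, 3 were lower in W329G than in WT under 5-FU (DNAJC3, DNAJB9 and ERN1).

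Of 16 regulators of the integrated stress response, which include the eIF2 kinases and phosphatase subunits, none was called in either response by the unpaired fit, with 3 in W329G and 4 in WT at an unadjusted p under 0.05, and EIF2AK2 was higher in W329G than in WT under 5-FU (0.63). Of 13 other cytosolic synthetases, none was called in W329G by the unpaired fit (7 at an unadjusted p under 0.05), 3 fell in WT (TARS1, CARS1 and LARS1) and 3 were higher in W329G than in WT under 5-FU (YARS1, FARSB and FARSA). Of 17 mitochondrial synthetases, none was called in W329G (3 at an unadjusted p under 0.05), HARS2 rose in WT (0.49), and CARS2 was lower in W329G than in WT under 5-FU (-0.73) and DMSO (-0.94). Of 8 genes of the glutathione system, none was called in W329G (0 at an unadjusted p under 0.05), GSR fell in WT (-0.48), and GSR (0.75) and CHAC2 (1.07) were higher in W329G than in WT under 5-FU. Of 14 glutamine, proline and aspartate genes, none was called in either response by the unpaired fit, with 2 in W329G and 1 in WT at an unadjusted p under 0.05. Under 5-FU GLUD1 (0.53) was higher and GLUL (-1.75) and ALDH4A1 (-0.98) lower in W329G than in WT, and GLUL was lower with DMSO too (-1.71). With DMSO, ADSS2 (0.68) was higher in W329G than in WT. The paired fit called more genes of these lists. Of the stress response regulators, 2 fell in W329G, and 6 fell and 1 rose in WT. For the other cytosolic synthetases, 6 fell in W329G and 7 in WT. Mitochondrial synthetases had 2 lower and 1 higher in W329G, and 3 lower and 2 higher in WT. The glutathione system had 2 lower and 1 higher in WT alone. Glutamine, proline and aspartate genes had 2 lower in W329G, and 2 lower and 1 higher in WT.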

How the data were processed

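Per the labels' protocols, TruSeq libraries were prepared from poly-A-selected RNA. Raw counts per gene were deposited by the authors for each of the 16 libraries, with Ensembl identifiers in experiment 1 and symbols in experiment 2, per the file headers. Aligner, counter and strand setting were not given in the sources used here. Per the submitters' processing notes the build is hg19, while 96.3% of 56898 genes in the experiment 1 files had the start and end of GENCODE release 29 on GRCh38, and coordinates are given in that form. All 26 values of 7 digits in experiment 2 end in 0. Tables were joined by symbol, which kept 28443 genes and 97.6 to 98.6% of counts.

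Counts were tested with edgeR 4.0.16 (R 4.3.3) by the quasi-likelihood F test after TMM scaling and filterByExpr. Responses to 5-FU and their difference used 16 libraries with a term for experiment. Genotypes were compared on 8 sums per cell number and treatment, without a term for experiment, so their SE leaves out the spread between experiments. SE is the log2 fold change divided by the square root of F. Adjusted p-values are Benjamini-Hochberg values over all genes tested, with a threshold of 0.05. Scripts were tested on simulated data. DESeq2 1.42.0, other filters, left-out libraries and paired fits were alternatives.

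Same-numbered DMSO and 5-FU libraries come from the same line. Differences between the lines of a genotype and experiment correlated across 16301 genes between the treatments (r = 0.708 and 0.633 in W329G, 0.487 and 0.596 in WT), so paired values are printed beside the counts. The labels name no separate cultures beyond the 2 experiments, and p-values measure only the spread between these libraries. Members and the other lists (stress response regulators, other ATF4 targets, cytosolic and mitochondrial synthetases, folate and methionine, purines, glutamine, proline and aspartate, ER chaperones, glutathione, cell type markers) were chosen with earlier results of these data known. Members called in at least 1 comparison are given by library, and other lists by counts and at most 3 called genes each, with a few more named after their values were seen. Some genes of these other lists are not reported here by name.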

Additional observations from a re-analysis of the deposited data

Results flagged for a closer look

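Of 160 groups of 4 libraries checked for a library apart from the others (40 members in 4 groups, on the log2 scale), 5 were flagged; chance flags about 1 in 20 groups, or 8 here. AARS1 in W329G cells with 5-FU had 266 CPM in replicate 1, the 3 others lying between 129 and 144 CPM. MARS1 in W329G cells with 5-FU had 124 CPM in replicate 4, the others 189 to 204 CPM. SLC7A1 in WT cells with 5-FU had 97.1 CPM in replicate 2, the others 63.4 to 67.6 CPM. ALDH1L2 in WT cells with DMSO had 19.5 CPM in replicate 1, the others 39.5 to 43.8 CPM. GARS1 in WT cells with DMSO had 270.0 CPM in replicate 1, the others 419 to 451 CPM.

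The response of ATF5 differed in sign between the genotypes, W329G minus WT 0.674 on the log2 scale, with 4 of 4 W329G pairs higher and 4 of 4 WT pairs lower under 5-FU. The test of that difference gave an adjusted p of 0.151 (edgeR), and between 0.0113 in the paired fit and 1.00 within experiment 2 over the alternatives.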

How the results depend on the processing

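None of the called values changed sign under any alternative run. Counts of members called were 3 for the W329G response and 11 for the WT response. They became 6 and 17 with DESeq2's test, 0 and 4 with no term for experiment, 0 and 1 within experiment 1, 0 and 0 within experiment 2, and 0 to 0 and 5 to 10 with 1 pair left out. Over all genes, 129 and 1435 calls became 576 and 2094 with DESeq2's test and 13 and 399 with no term for experiment. Within experiment 1 they became 0 and 204, and within experiment 2 they became 0 and 0. With the replicate block by line the members called were 3 and 13, where 78 and 1333 of all genes were. With the replicate block by pair, chosen after the data were seen, they were 18 and 30, where 1798 and 4054 of all genes were. For the difference of responses, 0 became 2 with DESeq2's test, 2 with the replicate block by pair and 0 to 1 with 1 pair left out (SHMT1, without WT replicate 3, adjusted p = 0.0441). For the difference between experiments in W329G, 0 became 1 with the replicate block by pair (DDIT3).

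Under DMSO, 0 genotype calls became 6 with DESeq2's test, 6 with no filter on low counts and 0 to 11 with 1 line left out; the 11, of which 10 were higher, came without WT cells 2, where 12.8% of all genes were called, against 1.42% with all lines. Under 5-FU, 11 became 18 with DESeq2's test, 18 with no filter, 1 within experiment 1, 0 within experiment 2, 0 with the cell numbers of experiment 2 exchanged and 0 to 22 with 1 line left out. The lone sum left by such a fit is assumed to vary like the other groups. Over all genes under 5-FU, 2504 calls became 419 within experiment 1, 30 within experiment 2 and 221 with the cell numbers exchanged. DESeq2's size factors, and leaving out the mitochondrially encoded genes, kept each count within 1.5 times its main value. The causes were not tested. Depth limits the low genes most, CHAC1, CTH and STC2, and CBS in experiment 1.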
